A study of Mus musculus with 9 samples.

Results

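The tumour necrosis factor (TNF) family joins small signalling proteins, the ligands, to a matching family of receptors. The genes described here are the 45 of 25124 in the deposited table whose name starts with Tnfsf or Tnfrsf followed by a digit, together with Tnf, Lta, Ltb, Ltbr, Fas, Cd40, Cd40lg, Cd27, Cd70, Eda, Edar, Eda2r, Ngfr and Relt. They comprise 17 ligands and 28 receptors. All mice were C57BL/6 and had Staphylococcus epidermidis strain LM087, a skin bacterium, applied to the ear every other day. In the anti-CTLA-4 group, of 4 libraries, the mice also received an antibody that blocks CTLA-4, an inhibitory receptor of T cells. In the other group, of 5 libraries, they had the bacterium alone. Whole ear skin was collected on day 8 and sequenced as bulk RNA, and the comparison asks what checkpoint blockade adds in skin that carries the bacterium. Neither skin free of the bacterium nor skin with only the antibody was analysed here, nor do the labels give the antibody clone, its dose, or the age and sex of the mice. The labels number the replicates without tying each to its own animal, so p-values measure only how these samples vary, and that variation may be technical in part.

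TNF family ligands are mostly made as trimers on the cell surface and bind receptors that cluster on contact. Receptors with a death domain, such as Fas and the TNF receptor Tnfrsf1a, can start cell death or inflammatory signalling, while others recruit TRAF adaptor proteins and activate NF-kappaB. In skin, some members pass co-stimulatory signals between T cells and antigen-presenting cells, and others, such as the ectodysplasin receptor Edar, are known from the hair follicle.

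The libraries held between about 10200000 and 13900000 reads over the listed genes. These totals were recovered from the deposited TPM, a measure of abundance scaled by length and library, which turned out to be whole read numbers divided by each gene's genomic span with introns included. TPM is therefore compared here between libraries and not, as a rule, between genes. The ribosomal RNA entries Rn45s and Mir6236 held 30.6% to 40.2% of the listed TPM in anti-CTLA-4 skin. With the bacterium alone they held 32.4% to 37.7%. They stayed in the TPM scaling, and their part in the TPM results was not tested. Markers of several cell types differed between the groups. The summed TPM of 11 T cell markers lay between 68.7 and 93.5 in anti-CTLA-4 skin and between 26.6 and 37.8 with the bacterium alone, and 9 of the 11 were higher without overlap. For 9 monocyte and macrophage markers the sums were 618 to 932 TPM in anti-CTLA-4 skin and 343 to 517 TPM with the bacterium alone, with 7 of 9 higher without overlap. For 7 neutrophil markers they were 1509 to 4459 TPM in anti-CTLA-4 skin and 106 to 1478 TPM with the bacterium alone, with 4 of 7 higher without overlap and Ly6g and Retnlg at 0 in at least 1 library. For 8 hair follicle markers they were 13.5 to 19.7 TPM in anti-CTLA-4 skin and 24.8 to 37.4 TPM with the bacterium alone, with 4 of 8 lower without overlap and Shh at 0 in at least 1 library. Regulatory T cell markers summed to 33.0 to 38.6 TPM in anti-CTLA-4 skin and 20.4 to 25.0 TPM with the bacterium alone, with 2 of 4 higher without overlap. Mast cell markers summed to 185 to 210 TPM in anti-CTLA-4 skin and 121 to 170 TPM with the bacterium alone (2 of 4), and endothelial markers to 16.5 to 17.9 TPM in anti-CTLA-4 skin and 15.0 to 16.3 TPM with the bacterium alone (2 of 4). The keratinocyte markers that define the tissue were abundant throughout, at 20002 to 23480.5 TPM in anti-CTLA-4 skin and 22655 to 28663.5 TPM with the bacterium alone. In bulk RNA, fewer cells of a type and less RNA per cell cannot be told apart, and the part of these shifts in the results below was not tested.

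In anti-CTLA-4 skin 8 family members were higher and 1, Ngfr, was lower. The higher ones were the receptors Tnfrsf1b, Tnfrsf14, Relt, Tnfrsf13b, Tnfrsf26 and Tnfrsf4 and the ligands Tnfsf14 and Ltb. Of the 45 members, 39 had at least 1 TPM in at least 4 libraries and were tested with limma on log2(TPM + 1), with p-values adjusted by the Benjamini-Hochberg method over 15704 genes and a threshold of 0.05. The 8 higher members are 20.5% of those tested, against 7.16% of all genes higher, and the 1 lower member is 2.56%, against 4.48% of all genes lower. Of the 14 tested ligands 2 were higher and none lower (0 lower at an unadjusted limma p under 0.05, and 0 called lower by voom), and of the 25 tested receptors 6 were higher and 1 lower. Without the expression filter all 45 members were tested, and 8 were higher and 1 lower, against 4.48% and 2.42% of 22100 genes. No overlap between the groups was seen for 8 tested members that were higher and 3 that were lower, against 8.02% and 6.39% of all tested genes. The median log2 fold change was 0.14 over the tested members and -0.014 over all tested genes, and without the filter 0.13 and -0.008. The calls of Tnfrsf1b, Tnfrsf14, Relt, Tnfrsf13b, Tnfsf14, Ltb and Ngfr held in each of 9 fits without 1 library. In the fits without replicate 1, 3, 4 or 5 of the bacterium alone, however, Tnfsf14 met the expression filter only through the anti-CTLA-4 libraries. The split depended on the scaling, since quantile normalization called 10 members higher and 3 lower, and over all genes 1314 higher and 1429 lower in place of 1124 and 704.

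**Figure D1:**
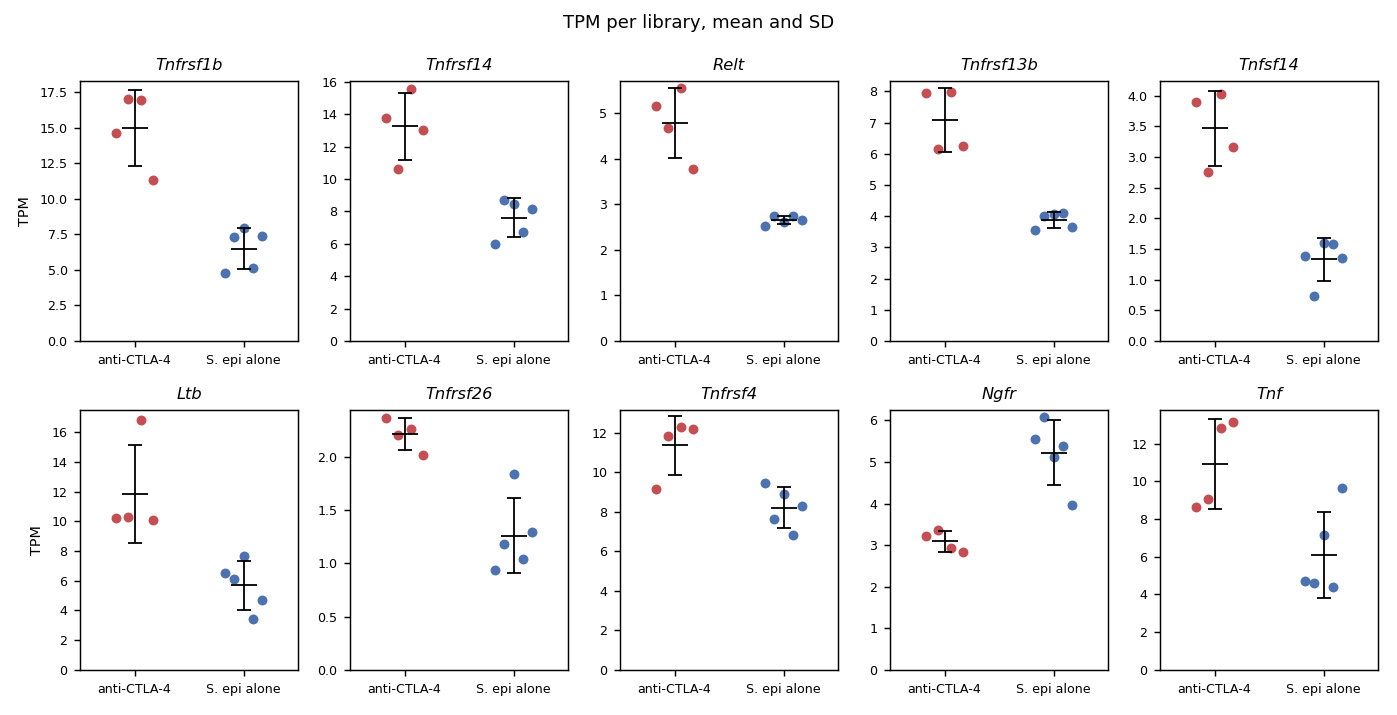
TPM in each library (points) of the 9 called members and Tnf, with the mean and SD, anti-CTLA-4 skin on the left (n = 4) and the bacterium alone on the right (n = 5). Tnfrsf1b lies between 11.3 and 17.0 TPM on the left and between 4.80 and 7.93 on the right, while Tnfrsf4 and Tnf overlap between the groups and Ngfr is lower on the left.

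A second test on the recovered reads, limma-voom, was added after the data were seen, because log2(TPM + 1) compresses genes with low values. This test also left out the ribosomal RNA entries and filtered on reads (at least 10 in at least 4 libraries). Its median log2 fold change was 0.24 over the members and 0.027 over all genes, so more than the compression differed. It tested 41 members and called 16 higher and 3 lower, against 12.1% and 7.05% of 16498 genes. All 9 members called on TPM were called there too, but Tnfsf14 met the read minimum only through the anti-CTLA-4 libraries. The further members were Cd27, Cd40, Cd40lg, Tnf, Tnfrsf1a, Tnfrsf8, Tnfrsf9 and Tnfsf10, higher, and Edar and Tnfrsf19, lower. Of these, Cd40lg met the read minimum only through the anti-CTLA-4 libraries.

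**Figure D2:**
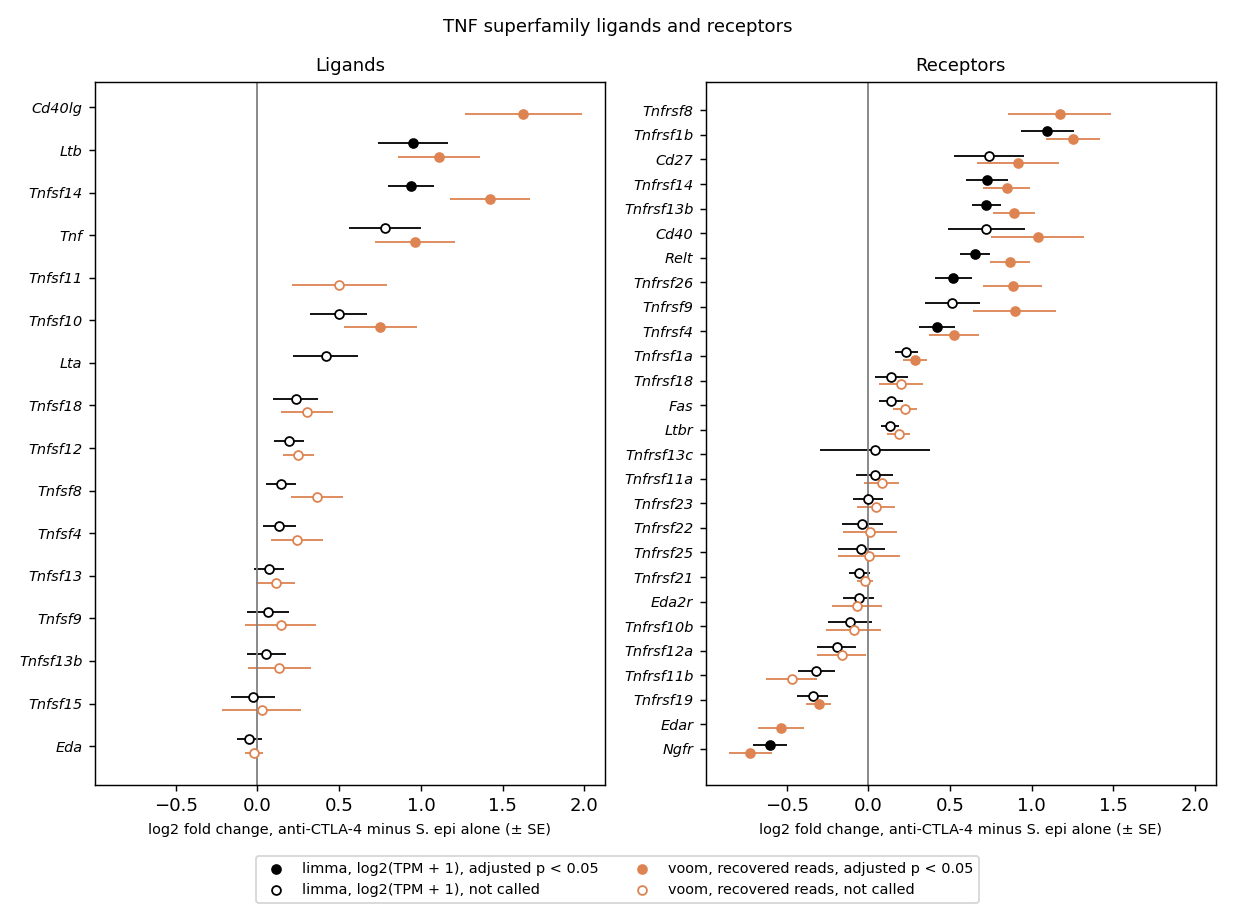
Log2 fold change with its SE for each member tested, anti-CTLA-4 skin minus the bacterium alone, ligands on the left and receptors on the right, in black for limma on log2(TPM + 1) and in orange for voom on recovered reads; filled points passed an adjusted p of 0.05. Tnfrsf1b has the largest TPM change among receptors, at 1.10, and most of the uncalled members sit close to 0. Cd40lg, shown for voom alone, and Tnfsf14 met the read minimum of voom only through the anti-CTLA-4 libraries.

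The genes Ltb, Tnf and Lta stand next to each other on mm10 chromosome 17 and encode lymphotoxin beta, TNF and lymphotoxin alpha. The windows around the start sites of Ltb and Tnf and of the receptors Tnfrsf1b and Tnfrsf14 are shown as the regulatory sequence beside the ligands and receptors that these results turn on. They come from RefSeq (build GRCm38.p6) and run from 250 bases before to 50 after the start, on the strand of the gene. Their positions are chr17:35194257-35194556 (plus strand) for Ltb, chr17:35201958-35202257 (minus) for Tnf, chr4:145246821-145247120 (minus) for Tnfrsf1b and chr4:154928028-154928327 (minus) for Tnfrsf14. Capitals mark a match to the NF-kappaB consensus on the opposite strand in Ltb and to TATAAA in Tnf. In Tnfrsf1b and Tnfrsf14 they mark, on the opposite strand, a repeat of GAAA with any 2 bases between its copies, of an interferon-response type.
Ltb: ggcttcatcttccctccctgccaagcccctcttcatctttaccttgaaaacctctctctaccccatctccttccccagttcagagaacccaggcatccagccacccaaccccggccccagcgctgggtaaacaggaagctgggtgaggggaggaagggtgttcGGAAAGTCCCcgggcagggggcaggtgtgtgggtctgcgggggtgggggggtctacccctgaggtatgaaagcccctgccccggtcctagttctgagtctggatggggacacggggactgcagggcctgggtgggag
Tnf: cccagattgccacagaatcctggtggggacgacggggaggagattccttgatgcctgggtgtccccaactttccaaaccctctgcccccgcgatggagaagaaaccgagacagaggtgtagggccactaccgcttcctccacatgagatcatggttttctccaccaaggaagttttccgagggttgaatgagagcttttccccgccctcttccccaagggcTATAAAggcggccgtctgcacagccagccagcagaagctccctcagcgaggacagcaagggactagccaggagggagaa
Tnfrsf1b: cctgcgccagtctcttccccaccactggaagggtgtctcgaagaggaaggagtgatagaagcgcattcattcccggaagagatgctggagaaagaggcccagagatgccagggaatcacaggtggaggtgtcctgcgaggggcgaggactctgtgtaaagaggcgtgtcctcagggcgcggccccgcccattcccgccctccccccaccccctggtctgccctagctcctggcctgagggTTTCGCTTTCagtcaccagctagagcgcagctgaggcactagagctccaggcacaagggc
Tnfrsf14: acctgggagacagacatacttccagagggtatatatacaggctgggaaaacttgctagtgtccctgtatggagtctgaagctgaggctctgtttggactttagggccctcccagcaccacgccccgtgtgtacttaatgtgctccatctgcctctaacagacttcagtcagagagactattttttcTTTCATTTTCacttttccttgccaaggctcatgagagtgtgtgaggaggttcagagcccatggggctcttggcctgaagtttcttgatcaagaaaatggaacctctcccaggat
Of the 45 members, 35 had a window in the RefSeq table, 39 windows in all, and motifs were searched on both strands, with overlaps between motifs allowed. The NF-kappaB consensus was found in 4 of the 39, against 8.46% of 32851 windows, the GAAA repeat in 4, against 3.44%, and TATAAA in 7, against 13.6%. Among the 7 windows of members called higher the counts were 1, 2 and 0. A match describes the letters only.

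The TNF receptor 2 gene Tnfrsf1b (mm10 chromosome 4, 145212368 to 145246870, minus strand), which is known from T cells and myeloid cells, rose. It had 14.7, 17.0, 16.9 and 11.3 TPM in the 4 anti-CTLA-4 libraries, against 4.80, 7.30, 7.93, 5.12 and 7.38 TPM in the 5 libraries of the bacterium alone. Every anti-CTLA-4 library lay above every other one. It averaged 15.0 ± 2.67 TPM in anti-CTLA-4 skin and 6.51 ± 1.44 TPM with the bacterium alone (SD, n = 4 and n = 5), a log2 fold change of 1.10 ± 0.16 (SE), with adjusted p = 0.00454 by limma. The other TNF receptor, Tnfrsf1a, which carries the death domain and is found on most cells, had 68.4, 67.3, 75.1 and 81.5 TPM in anti-CTLA-4 skin, against 62.9, 60.5, 66.6, 58.3 and 61.3 TPM with the bacterium alone. Its groups did not overlap either, but the difference was small (log2 0.23 ± 0.07 SE) and was not called on TPM (limma adjusted p = 0.0612), while voom called it (0.29, voom adjusted p = 0.0157). Tnfrsf1a had the higher level of the pair on both scales that could be formed. With recovered reads scaled per kilobase of the longest transcript (RPKM), it had 60.6 RPKM in anti-CTLA-4 skin and 49.8 RPKM with the bacterium alone, against 19.0 and 8.01 RPKM for Tnfrsf1b.

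The ligand Tnf itself was higher on average but overlapped. It had 8.63, 9.07, 12.8 and 13.1 TPM in anti-CTLA-4 skin, against 4.69, 4.62, 7.15, 4.37 and 9.62 TPM with the bacterium alone. Replicate 5 of the bacterium alone was the high library, and the log2 difference of 0.78 ± 0.22 (SE) had a limma adjusted p of 0.0514, or 0.0144 without that library. This was the only call of Tnf in 9 fits without 1 library, where the limma adjusted p reached 0.129. Lta had 2.35, 1.88, 2.71 and 1.76 TPM in anti-CTLA-4 skin, against 0.894, 1.06, 1.73, 0.932 and 2.58 TPM with the bacterium alone, again with replicate 5 highest in its group. It was not called (limma adjusted p = 0.215, or 0.276 without the expression filter). It passed without replicate 5 (limma adjusted p = 0.0445), where it met the filter only through the anti-CTLA-4 libraries. The other fits without 1 library did not call it (limma adjusted p up to 0.361). Lta rested on 30 recovered reads in anti-CTLA-4 skin and 24 with the bacterium alone. Each of the 4 anti-CTLA-4 libraries was the highest of its group for 6 to 24 of the 45 members, replicate 3 for 24, and each library of the bacterium alone for 5 to 11, replicate 5 for 11. The neutrophil marker sums of replicates 5 and 3 of the bacterium alone, 1478 and 1336 TPM, lay above the 106 to 453 TPM of the other libraries in that group. Without replicate 5 of the bacterium alone 12 members were higher and 1 lower, with Cd40, Lta, Tnf, Tnfrsf9 and Tnfsf10 gained and Tnfrsf4 lost. Of the gained members, Lta and Tnfrsf9 met the expression filter there only through the anti-CTLA-4 libraries.

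Ltb (mm10 chromosome 17, 35194507 to 35196305, plus strand), which anchors lymphotoxin to the cell surface and is made by lymphocytes, rose. It had 10.2, 10.3, 16.8 and 10.1 TPM in anti-CTLA-4 skin, against 6.53, 6.14, 7.70, 3.40 and 4.71 TPM with the bacterium alone. The groups did not overlap, and replicate 3 stood above the other anti-CTLA-4 libraries. The log2 fold change was 0.95 ± 0.22 (SE), with adjusted p = 0.0222 by limma. Leaving out any 1 library kept the call in all 9 fits, where the limma adjusted p reached 0.0477.

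Tnfsf14 (mm10 chromosome 17, 57189474 to 57194181, minus strand) encodes LIGHT, a ligand of activated T cells that binds both the lymphotoxin beta receptor Ltbr and Tnfrsf14. It had 3.90, 2.76, 4.04 and 3.16 TPM in anti-CTLA-4 skin, against 1.39, 0.740, 1.60, 1.59 and 1.35 TPM with the bacterium alone. The lowest anti-CTLA-4 library stood clear of the highest other one, with 103 recovered reads in anti-CTLA-4 skin and 48 with the bacterium alone. The log2 fold change was 0.94 ± 0.14 (SE), with adjusted p = 0.00450 by limma, and 1.42 ± 0.25 on recovered reads (voom adjusted p = 0.00181). Tnfsf14 met the read minimum of voom only through the anti-CTLA-4 libraries. The fit without a filter gave a limma adjusted p of 0.00884.

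Tnfrsf14 (mm10 chromosome 4, 154922210 to 154928077, minus strand), known as HVEM, also rose. It had 13.8, 10.6, 15.6 and 13.1 TPM in anti-CTLA-4 skin, against 6.00, 8.71, 8.47, 6.71 and 8.18 TPM with the bacterium alone, without overlap. Its log2 fold change was 0.73 ± 0.13 (SE), with adjusted p = 0.00860 by limma. Ltbr, the lymphotoxin beta receptor of stromal and myeloid cells, had 31.2, 29.6, 32.9 and 31.4 TPM in anti-CTLA-4 skin, against 29.1, 26.9, 29.9, 27.3 and 29.0 TPM with the bacterium alone. It was not called (limma adjusted p = 0.156), and the groups overlapped at their edges.

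Differences between members were compared directly for 13 pairs, with a two-sided exact permutation test (126 arrangements of the 9 libraries into 4 and 5). Of these, 4 were picked by hand from pairs that share a ligand, and 9 were tested members within 50 kb of each other. Other pairs that share a ligand were not compared. The pairs were chosen with the values known. Tnfrsf1b minus Tnfrsf1a in log2(TPM + 1) was -2.22 ± 0.357 in anti-CTLA-4 skin and -3.09 ± 0.265 with the bacterium alone (SD, n = 4 and n = 5), higher by 0.86. Tnfrsf14 minus Ltbr was -1.19 ± 0.155 in anti-CTLA-4 skin and -1.78 ± 0.217 with the bacterium alone, higher by 0.59. Each of these had the smallest p the exact test allows here, 0.0159, which is 0.0516 after adjustment over the 13 pairs. Of the pairs, 0 passed after adjustment and 6 had an unadjusted exact p under 0.05. For the neighbours Ltb and Tnf, Ltb minus Tnf differed between the groups by 0.17 (exact permutation p = 0.651).

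Among the co-stimulatory receptors known from T cells, Tnfrsf4 was called on TPM and Tnfrsf18 was not, and the genes lie 9733 bases apart on mm10 chromosome 4. Tnfrsf4, or OX40 (156013695 to 156016589, plus strand), had 9.14, 11.8, 12.3 and 12.2 TPM in anti-CTLA-4 skin, against 9.46, 7.62, 8.91, 6.80 and 8.29 TPM with the bacterium alone. Its groups overlapped through anti-CTLA-4 replicate 1, and the log2 fold change of 0.42 ± 0.11 (SE) had a limma adjusted p of 0.0380. Leaving out 1 library at a time ended the call in 6 of 9 fits (anti-CTLA-4 replicates 2, 3 and 4 and replicates 2, 4 and 5 of the bacterium alone), where the limma adjusted p reached 0.0980, and so did testing without the expression filter (limma adjusted p = 0.0598). Tnfrsf18, or GITR, had 34.3, 33.5, 33.0 and 41.1 TPM in anti-CTLA-4 skin, against 36.0, 29.4, 35.2, 26.7 and 33.5 TPM with the bacterium alone, a difference that was not called (limma adjusted p = 0.427). The difference between the neighbours, Tnfrsf4 minus Tnfrsf18, was higher by 0.28 in anti-CTLA-4 skin (exact permutation p = 0.0159, adjusted p = 0.0516).

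Cd27, a receptor of naive and memory T cells, had 6.84, 6.06, 8.22 and 5.13 TPM in anti-CTLA-4 skin, against 3.40, 5.41, 4.71, 2.31 and 2.40 TPM with the bacterium alone. The groups overlapped narrowly, and the log2 difference of 0.74 ± 0.22 (SE) was not called (limma adjusted p = 0.0560), but passed without replicate 2 or 3 of the bacterium alone (as low as 0.0336) and on recovered reads (voom adjusted p = 0.0231). The other 7 fits without 1 library did not call it (limma adjusted p up to 0.125). Tnfrsf9, or 4-1BB, a receptor of activated T cells, had 2.68, 1.97, 2.69 and 2.13 TPM in anti-CTLA-4 skin, against 1.22, 1.03, 1.81, 0.788 and 2.14 TPM with the bacterium alone. It was not called on TPM (limma adjusted p = 0.0837) and was called without replicate 5 of the bacterium alone (0.0344) and on recovered reads (voom adjusted p = 0.0264). Without that replicate it met the expression filter only through the anti-CTLA-4 libraries. No other fit without 1 library called it (limma adjusted p up to 0.177). Tnfrsf25, or DR3, a death-domain receptor of T cells, averaged 5.72 ± 1.37 TPM in anti-CTLA-4 skin and 5.87 ± 0.971 TPM with the bacterium alone (SD, n = 4 and n = 5). Tnfrsf8, or CD30, was below the filter, at 0.271 to 0.605 TPM in anti-CTLA-4 skin and 0.157 to 0.441 TPM with the bacterium alone, from 141 recovered reads in anti-CTLA-4 skin and 81 with the bacterium alone. On those reads it was called higher, with a log2 fold change of 1.17 ± 0.32 (SE, voom adjusted p = 0.0212).

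Of the ligands of these receptors, none was called by limma (0 at an unadjusted p under 0.05) or by voom. Tnfsf4, the OX40 ligand, had 1.94, 1.44, 1.82 and 1.28 TPM in anti-CTLA-4 skin, against 1.23, 1.71, 1.30, 1.31 and 1.36 TPM with the bacterium alone (limma adjusted p = 0.453). Tnfsf18, the GITR ligand, averaged 6.70 ± 1.17 TPM in anti-CTLA-4 skin and 5.54 ± 0.961 TPM with the bacterium alone (SD, n = 4 and n = 5). For Tnfsf9, the 4-1BB ligand, the means were 3.67 ± 0.871 TPM in anti-CTLA-4 skin and 3.42 ± 0.386 TPM with the bacterium alone. For Tnfsf8, the CD30 ligand, they were 1.06 ± 0.0891 TPM in anti-CTLA-4 skin and 0.872 ± 0.159 TPM with the bacterium alone, and for Tnfsf15, a ligand of Tnfrsf25, 1.08 ± 0.399 TPM in anti-CTLA-4 skin and 1.10 ± 0.211 TPM with the bacterium alone. The limma adjusted p-values of these 4 lay between 0.314 and 0.929. Cd70, the Cd27 ligand, was at 0 in 3 of 4 anti-CTLA-4 libraries and in 3 of 5 with the bacterium alone, with 2 recovered reads in each group.

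Cd40 was called higher on recovered reads, and its ligand Cd40lg in the fit without a filter. Cd40, the receptor through which helper T cells activate antigen-presenting cells and B cells, had 4.91, 4.19, 4.37 and 5.50 TPM in anti-CTLA-4 skin, against 1.67, 2.28, 3.57, 1.31 and 4.41 TPM with the bacterium alone. Replicate 5 of the bacterium alone reached into the anti-CTLA-4 range, and the log2 difference of 0.72 ± 0.24 (SE) had a limma adjusted p of 0.0826, or 0.0268 without that library. The other fits without 1 library gave no call of Cd40 (limma adjusted p up to 0.181). On recovered reads the log2 difference was 1.04 ± 0.28 (voom adjusted p = 0.0225). Its ligand Cd40lg, made by activated helper T cells, was below the filter at 0.618, 1.38, 0.848 and 0.509 TPM in anti-CTLA-4 skin, against 0.329, 0.293, 0.159, 0.171 and 0.297 TPM with the bacterium alone. The groups did not overlap. It had 62 recovered reads in anti-CTLA-4 skin and 23 with the bacterium alone. Because Cd40lg met the read minimum of voom only through the anti-CTLA-4 libraries, its test comes from the fit without a filter. There the log2 fold change was 0.54 ± 0.12 (SE, limma adjusted p = 0.0372).

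Of the receptors for the B cell survival factors BAFF and APRIL, Tnfrsf13b rose. Tnfrsf13b, or TACI (mm10 chromosome 11, 61142484 to 61149609, plus strand), had 7.94, 6.15, 8.00 and 6.26 TPM in anti-CTLA-4 skin, against 3.57, 3.99, 4.06, 4.10 and 3.67 TPM with the bacterium alone. The libraries of the bacterium alone were tightly grouped and lay below all others, and the log2 fold change was 0.72 ± 0.09 (SE), with adjusted p = 0.00278 by limma. The related receptor Tnfrsf13c had 0.279, 0.519, 1.80 and 1.88 TPM in anti-CTLA-4 skin, against 1.48, 0.440, 0.477, 2.32 and 0.535 TPM with the bacterium alone, from 20 recovered reads in anti-CTLA-4 skin and 21 with the bacterium alone, and gave no call (limma adjusted p = 0.952). Tnfrsf17, or BCMA, a receptor of plasma cells, was below the filter, at 0.352 to 0.705 TPM in anti-CTLA-4 skin and 0.325 to 0.704 TPM with the bacterium alone. The summed TPM of 6 B and plasma cell markers was 3.35 to 5.03 in anti-CTLA-4 skin and 1.36 to 3.15 with the bacterium alone, with 1 of 6 higher without overlap and Ms4a1, Mzb1 and Jchain at 0 in at least 1 library. The part of these cells in the Tnfrsf13b result was not tested.

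The ligands of these receptors were not called. Tnfsf13, which encodes APRIL, had 21.0, 23.5, 23.1 and 17.4 TPM in anti-CTLA-4 skin, against 21.7, 19.9, 20.9, 18.5 and 19.4 TPM with the bacterium alone (limma adjusted p = 0.678). Tnfsf13b, which encodes BAFF, had 0.926, 1.42, 1.42 and 0.882 TPM in anti-CTLA-4 skin, against 1.18, 1.11, 1.31, 1.04 and 0.745 TPM with the bacterium alone (limma adjusted p = 0.815).

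The receptor gene Tnfrsf26 was called on TPM, while Tnfrsf22, Tnfrsf23, Fas, Tnfrsf10b and Tnfrsf21 were not. Tnfrsf26 had 2.37, 2.21, 2.27 and 2.02 TPM in anti-CTLA-4 skin, against 0.938, 1.18, 1.84, 1.04 and 1.29 TPM with the bacterium alone, without overlap. The log2 fold change was 0.52 ± 0.11 (SE), with adjusted p = 0.0195 by limma, and without anti-CTLA-4 replicate 1 it was no longer called (limma adjusted p = 0.0525). Without replicate 2, 3, 4 or 5 of the bacterium alone, Tnfrsf26 met the expression filter only through the anti-CTLA-4 libraries. The gene lies beside its relatives Tnfrsf22 and Tnfrsf23 on mm10 chromosome 7 (143607685 to 143627845, minus strand), and the sources do not say how reads shared by such copies were counted, so the values of all 3 are uncertain. Tnfrsf26 minus Tnfrsf22 was higher by 0.56 in anti-CTLA-4 skin (exact permutation p = 0.0159, adjusted p = 0.0516). Tnfrsf22 averaged 2.14 ± 0.567 TPM in anti-CTLA-4 skin and 2.20 ± 0.300 TPM with the bacterium alone and Tnfrsf23 3.60 ± 0.126 TPM in anti-CTLA-4 skin and 3.64 ± 0.552 TPM with the bacterium alone (SD, n = 4 and n = 5), both mouse decoy receptors of TRAIL.

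Fas, the receptor of Fas ligand, averaged 4.60 ± 0.426 TPM in anti-CTLA-4 skin and 4.09 ± 0.303 TPM with the bacterium alone, and gave no call (limma adjusted p = 0.275). Tnfsf10, the TRAIL ligand, had 3.55, 2.73, 3.81 and 4.85 TPM in anti-CTLA-4 skin, against 2.08, 1.95, 2.73, 1.62 and 3.50 TPM with the bacterium alone (log2 0.50 ± 0.18 SE, limma adjusted p = 0.104). Leaving out replicate 5 of the bacterium alone gave a call (limma adjusted p = 0.0422), as did recovered reads (voom adjusted p = 0.0324). Leaving out any other library gave no call for Tnfsf10 (limma adjusted p up to 0.240). Its receptor Tnfrsf10b averaged 3.71 ± 0.868 TPM in anti-CTLA-4 skin and 4.03 ± 0.490 TPM with the bacterium alone and was not called. Tnfrsf21, or DR6, averaged 6.42 ± 0.451 TPM in anti-CTLA-4 skin and 6.70 ± 0.358 TPM with the bacterium alone.

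The RANK group, known from bone and from lymphoid and epithelial tissue, gave no call. The receptor Tnfrsf11a averaged 6.29 ± 0.851 TPM in anti-CTLA-4 skin and 6.10 ± 0.933 TPM with the bacterium alone. Its decoy Tnfrsf11b, or osteoprotegerin, had 0.923, 1.06, 1.38 and 1.38 TPM in anti-CTLA-4 skin, against 1.47, 1.63, 1.58, 2.34 and 1.62 TPM with the bacterium alone. Those values did not overlap and were lower, but the log2 difference of -0.32 ± 0.11 (SE) had a limma adjusted p of 0.108. Tnfsf11, or RANKL, was below the filter at 0.233 to 0.384 TPM in anti-CTLA-4 skin and 0.133 to 0.323 TPM with the bacterium alone. Tnfsf12, or TWEAK, averaged 13.4 ± 1.61 TPM in anti-CTLA-4 skin and 11.6 ± 0.994 TPM with the bacterium alone, and its receptor Tnfrsf12a 22.8 ± 2.91 TPM in anti-CTLA-4 skin and 26.3 ± 3.88 TPM with the bacterium alone (SD, n = 4 and n = 5), neither called (limma adjusted p = 0.206 and 0.341).

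Ngfr was the member called lower. It encodes the low-affinity neurotrophin receptor, known from nerve, Schwann cells and the hair follicle (mm10 chromosome 11, 95568821 to 95587698, minus strand). It had 3.23, 3.37, 2.92 and 2.83 TPM in anti-CTLA-4 skin, against 5.56, 6.09, 5.13, 5.40 and 3.96 TPM with the bacterium alone. All 4 anti-CTLA-4 libraries lay below the lowest of the others. The log2 fold change was -0.60 ± 0.10 (SE), with adjusted p = 0.00775 by limma. The 3 Schwann cell markers summed to between 23.9 and 63.8 TPM in anti-CTLA-4 skin and between 55.2 and 76.1 TPM with the bacterium alone, with 0 of 3 apart, while 4 of 8 hair follicle markers were lower without overlap, and the part of either in the Ngfr result was not tested.

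The receptors Edar and Tnfrsf19, known from the hair follicle, were lower on recovered reads. Edar, below the filter, had 0.491, 0.594, 0.800 and 0.625 TPM in anti-CTLA-4 skin, against 0.757, 1.02, 1.07, 1.04 and 0.820 TPM with the bacterium alone, with groups that overlapped through anti-CTLA-4 replicate 3, from 301 recovered reads in anti-CTLA-4 skin and 549 with the bacterium alone. Its voom log2 fold change was -0.53 ± 0.14 (SE, voom adjusted p = 0.0206). Tnfrsf19, or TROY, had 20.0, 20.4, 25.7 and 23.3 TPM in anti-CTLA-4 skin, against 33.7, 26.8, 26.5, 29.0 and 26.6 TPM with the bacterium alone, without overlap. On TPM its log2 difference of -0.34 ± 0.10 (SE) had a limma adjusted p of 0.0514, and on reads it was -0.30 ± 0.08 (voom adjusted p = 0.0174). The ligand Eda averaged 2.46 ± 0.164 TPM in anti-CTLA-4 skin and 2.59 ± 0.257 TPM with the bacterium alone and the receptor Eda2r 1.03 ± 0.205 TPM in anti-CTLA-4 skin and 1.11 ± 0.124 TPM with the bacterium alone, neither called.

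Relt, a receptor known from blood and lymphoid cells (mm10 chromosome 7, 100845848 to 100863413, minus strand), rose. It had 5.15, 4.68, 5.54 and 3.76 TPM in anti-CTLA-4 skin, against 2.52, 2.74, 2.61, 2.75 and 2.65 TPM with the bacterium alone. The groups stood apart, with little spread among the libraries of the bacterium alone, and the log2 fold change was 0.65 ± 0.09 (SE), with adjusted p = 0.00389 by limma.

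A list of 46 genes that carry the receptors' signals, chosen with earlier results of these data known, was described beside the family. All 46 were tested, and 8 (17.4%) were higher, against 7.16% of all genes, with a median log2 fold change of 0.11. None was lower with limma (0 at an unadjusted p under 0.05), and voom called 17 higher and 0 lower. Fasl, the Fas ligand of cytotoxic cells, averaged 1.98 ± 0.258 TPM in anti-CTLA-4 skin and 0.338 ± 0.213 TPM with the bacterium alone (SD, n = 4 and n = 5), without overlap. It passed the expression filter only through the anti-CTLA-4 libraries, so its test comes from the fit without a filter, where the log2 fold change was 1.17 (limma adjusted p = 0.00429). That fit also called 8 of the 46 higher, against 4.48% of 22100 genes. The NF-kappaB inhibitor gene Nfkbie averaged 14.8 ± 1.45 TPM in anti-CTLA-4 skin and 9.25 ± 1.34 TPM with the bacterium alone (log2 0.63, limma adjusted p = 0.00670). Ripk3, a kinase of necroptosis, averaged 15.5 ± 2.77 TPM in anti-CTLA-4 skin and 8.23 ± 2.00 TPM with the bacterium alone (log2 0.85, limma adjusted p = 0.0152). The adaptor Traf1 averaged 5.35 ± 0.899 TPM in anti-CTLA-4 skin and 3.11 ± 0.635 TPM with the bacterium alone (log2 0.63, limma adjusted p = 0.0171).

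The 4 other called genes of this list had smaller changes, of 0.28 to 0.32 on the log2 scale. They were the initiator caspase Casp8, the NF-kappaB subunit Relb, the cell death gene Bid and Sharpin, a subunit of a ubiquitin ligase complex of TNF signalling. Their calls did not hold in every fit without 1 library. Casp8 was not called without anti-CTLA-4 replicate 4 or replicate 1 or 2 of the bacterium alone (limma adjusted p as high as 0.0604). Relb was not called without anti-CTLA-4 replicate 3 or 4 or replicate 1, 2 or 4 of the bacterium alone (limma adjusted p as high as 0.0778). Bid was not called without anti-CTLA-4 replicate 1 or 3 or replicate 1 or 4 of the bacterium alone (limma adjusted p as high as 0.0643). For Sharpin this held for anti-CTLA-4 replicates 1, 3 and 4 and replicates 1, 2 and 5 of the bacterium alone (limma adjusted p as high as 0.0725). The calls of Nfkbie, Ripk3 and Traf1 held in all 9 fits without 1 library.

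**Figure D3:**
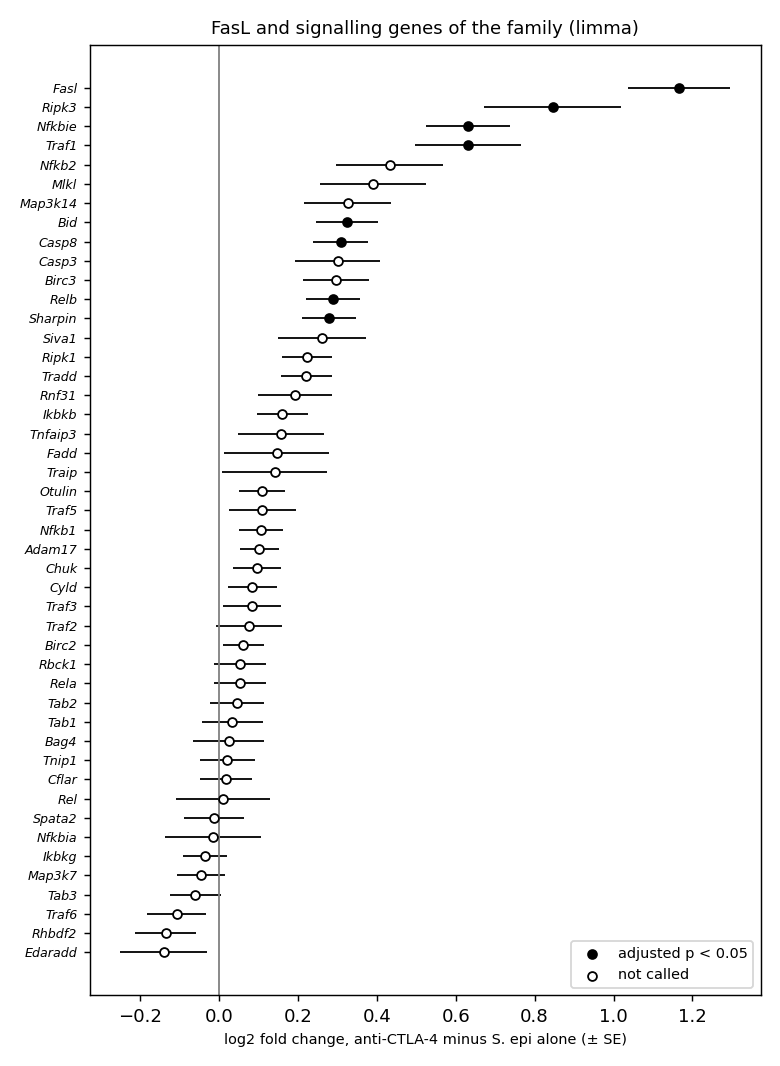
Log2 fold change with its SE for Fasl and the other 45 signalling genes, anti-CTLA-4 skin minus the bacterium alone, on log2(TPM + 1), with filled points for a limma adjusted p under 0.05. Ripk3 lies at 0.85 and Nfkbie at 0.63, no gene with a value below 0 is filled, and Fasl, at 1.17, passed the expression filter only through the anti-CTLA-4 libraries.

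Because T cell markers were higher too, the members were also divided by the summed TPM of the T cell receptor complex genes Cd3d, Cd3e and Cd3g, as a description without a test. That sum was 24.1, 26.3, 29.9 and 23.4 TPM in anti-CTLA-4 skin, against 14.6, 14.9, 15.1, 12.2 and 13.6 TPM with the bacterium alone, so that the means differed by a factor of 1.84. Division by a sum that was itself higher lowers the ratio of any gene with similar TPM in both groups. The share over all genes was not computed, so no count of members is drawn from the division. The ratio of the group means after division was 1.81 for Cd40lg, 1.40 for Tnfsf14, 1.25 for Tnfrsf1b and 1.14 for Ltb. After division the groups overlapped for each of these, and Cd40lg was highest in anti-CTLA-4 replicate 2. The ratio of means was 0.990 for Cd27, 0.976 for Tnf, 0.949 for Tnfrsf14 and 0.928 for Tnfrsf9. For Tnfrsf4, Tnfrsf18 and Tnfrsf25 it was 0.755, 0.609 and 0.529. Many members are expressed outside T cells, so a low ratio need not concern T cells.

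**Figure D4:**
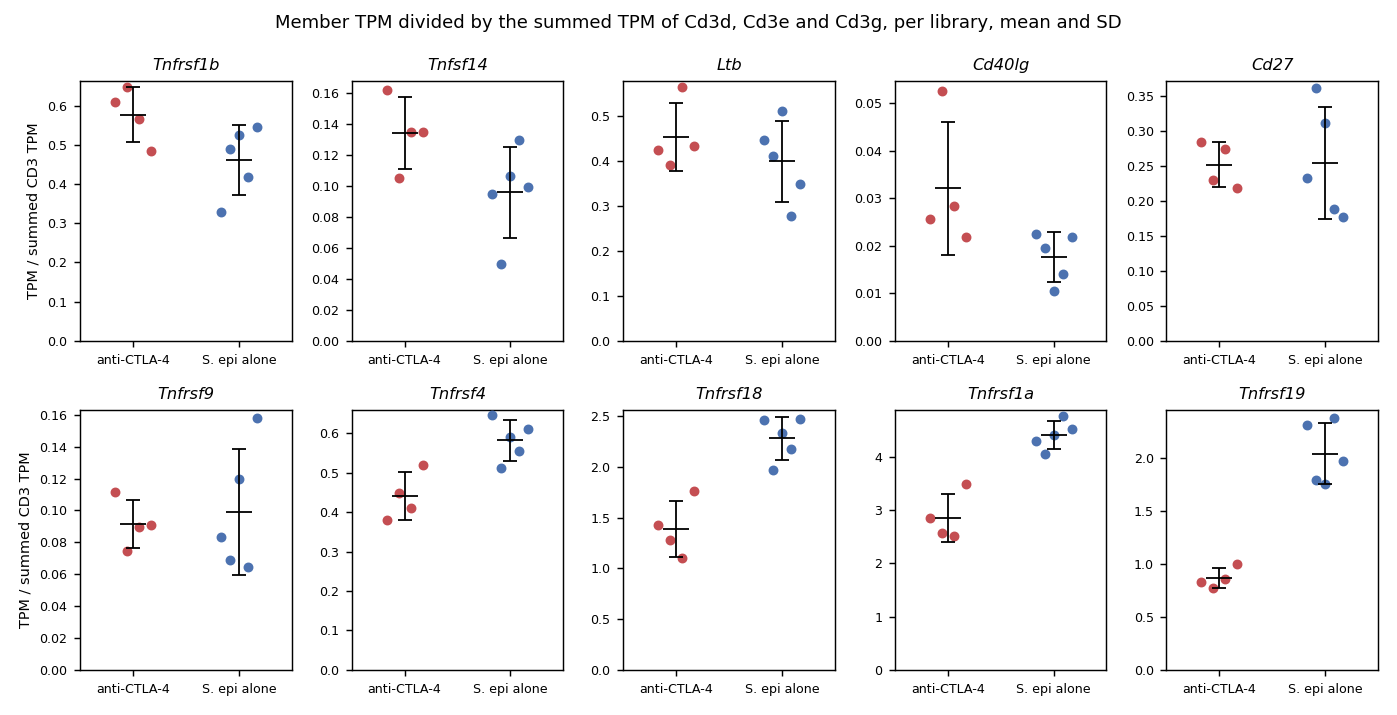
TPM of 10 members divided by the summed TPM of Cd3d, Cd3e and Cd3g in each library, with the mean and SD, anti-CTLA-4 skin on the left (n = 4) and the bacterium alone on the right (n = 5). The groups overlap for Tnfrsf1b, Tnfsf14, Ltb, Cd40lg, Cd27, Tnfrsf9 and Tnfrsf4, while Tnfrsf18, Tnfrsf1a and Tnfrsf19 lie lower in anti-CTLA-4 skin.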

How the data were processed

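The 9 C57BL/6 ear skin libraries were grouped by their titles. Per the labels' protocols, 500 ng of total RNA per sample entered the library kit and sequencing used 75 cycles. The submitters' processing notes name the tools STAR, HOMER and DESeq2 and the build mm10, without versions or counting rules. The deposited table gives TPM per gene and library. Its length column equals the genomic span in 99.2% of rows, and TPM times span was a whole multiple of 1 number per library for 100% of low values (within 0.1 reads), against 22.1% to 23.9% with spans shuffled. Levels between genes were therefore compared only where reads per kilobase of the longest GENCODE M21 transcript gave the same order, although the planned comparison had assumed a per-length scale. Nothing in the sources says if intron reads were counted.

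Groups were compared with limma 3.58.1 in R 4.3.3, with a variance trend, on log2(TPM + 1) for genes of at least 1 TPM in at least 4 libraries. Fold changes are on that scale and understate changes of low genes. The statistics were tested on simulated data. Alternatives were pseudocounts, filters, scalings, array weights, a block on the replicate number, leaving out each library and, added after the data were seen, voom on recovered reads (at least 10). The precision is limited by 4 and 5 libraries and, for low genes, by the recovered reads given beside them.

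The members and lists were chosen with earlier results of these data known. By rule, every member is accounted for, with values per library for called members and their partners of at least 1 TPM, and the called signalling genes are named, at most 12. Of the list of B and plasma cell markers, 1 gene is not reported here and stays out of the sum.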

Additional observations from a re-analysis of the deposited data

Results flagged for a closer look

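In 7 of 90 groups of member values, 1 library stood apart from the rest of its group by Dixon's criterion, which chance meets in about 1 in 20 groups. Among the anti-CTLA-4 libraries, Ltb had 16.8 TPM in replicate 3, against 10.1 to 10.3 TPM in the others. Tnfrsf18 had 41.1 TPM in replicate 4, against 33.0 to 34.3 TPM. Tnfrsf4 had 9.14 TPM in replicate 1, below the 11.8 to 12.3 TPM of the others. Cd70 had 0.292 TPM in replicate 4 and 0 in the others. With the bacterium alone, Tnfrsf11b had 2.34 TPM in replicate 4, against 1.47 to 1.63 TPM in the others. Tnfrsf8 had 0.441 TPM in replicate 5, against 0.157 to 0.183 TPM. Tnfsf4 had 1.71 TPM in replicate 2, against 1.23 to 1.36 TPM.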

How the results depend on the processing

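No result reversed. Of 614 values for 35 named genes under the alternatives, 540 kept their side of the threshold, 34 lost it and 40 gained it, and 6 of the 9 called members were called in every alternative that tested them. The 8 members called higher became 16 with voom on recovered reads and 7 to 12 when each library was left out. The 1 member called lower became 2 at a TPM minimum of 5, which left 19 members tested, 3 with quantile normalization, 3 with a common median, 3 with voom and 1 to 2 when each library was left out, 2 being reached without anti-CTLA-4 replicate 3, where Tnfrsf19 was gained. Tnfrsf11b and Tnfrsf19 were called lower with both other scalings, Tnf and Tnfrsf1a higher with quantile normalization, Tnf higher at a TPM minimum of 5, and Cd40lg higher without the filter. At the TPM minimum of 5, Tnf, Ltb and Tnfrsf13b met the filter only through the anti-CTLA-4 libraries. Ngfr met it only through the libraries of the bacterium alone, so these calls add no support. The signalling genes called higher became 17 with voom and 4 to 9 when each library was left out, with 4 without anti-CTLA-4 replicate 3 or 4 or replicate 1 of the bacterium alone. Over all genes, voom called 2002 higher and 1163 lower, quantile normalization 1429 lower and a common median 1313 lower. Leaving out each library gave 706 to 1094 higher, the fewest without anti-CTLA-4 replicate 3, and 337 to 703 lower, the fewest without anti-CTLA-4 replicate 1. The cause was not tested.

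Samples that share a replicate number did not deviate together (r between -0.0933 and 0.0180), and the labels do not say what the numbers mark. With the replicate number as a block, which leaves out replicate 5 of the bacterium alone, 7 members were called higher and 1 lower, 4 signalling genes higher and 0 lower, and 592 and 88 of all genes. That block fit did not call Tnfrsf14, Tnfrsf26 or Tnfrsf4 and called Tnf and Tnfrsf9.

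The median log2 fold change of all genes was -0.014, and -0.030 and -0.023 with quantile normalization and a common median. Depth limits Cd70, Lta, Tnfrsf13c and Tnfrsf17 most, with at most 30 recovered reads per group.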
